A study of Mus musculus with 6 samples.

Results

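The signals of 10 genes of the bone morphogenetic protein (BMP) pathway were followed across fibroblasts, pluripotent cell lines made from them, and embryonic stem cells. The genes were the ligand Bmp4, the secreted protease Bmp1, the receptors Bmpr1a and Bmpr2, the signal carrier Smad1, the antagonist Grem1, and Id1, Id2, Id3 and Id4. The genes were chosen with earlier results of these data known. Every probe with one of their symbols in the array's annotation was then taken. This gave 18 probes for 10 genes, of 23978 probes for 16593 genes in all. Of these, 16 probes of 9 genes were above background on at least 1 array and 13 probes on all 6 arrays, and both probes of Bmpr2 were above background on none.

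The data are 6 Illumina mouse-8 V2 BeadChips, with 1 array per sample. Lines #7.1 and #7.2 were gene-corrected FAH−/− iPS cells, 2 subclones of line #7 that carry a lentiviral transgene with wild-type FAH cDNA and EGFP under the viral SFFV promoter. Lines #4 and #7 were uncorrected FAH−/− iPS cells, each grown from 1 picked colony of retrovirally reprogrammed fibroblasts (Oct4, Sox2, Klf4 and c-Myc). FAH is fumarylacetoacetate hydrolase, the liver enzyme of tyrosine breakdown whose loss causes tyrosinemia type I. OG2 ES cells are mouse embryonic stem cells with an Oct4-GFP reporter. Their label gives no FAH genotype, but the paper states that its laboratory never held FAH−/− ES cells. Comparisons of the other samples with ES cells thus also differ in endogenous FAH genotype. The MEFs were FAH−/− embryonic fibroblasts from fetuses of both sexes. All iPS cell lines and the MEFs therefore lack working endogenous FAH, 3 of the 4 iPS cell lines share a derivation, and iPS cells were kept on a layer of feeder fibroblasts. The ES cells and the MEFs had no replicate.

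BMPs are secreted ligands that bind a complex of type I and type II serine/threonine kinase receptors. The type I receptor phosphorylates Smad1, Smad5 or Smad9, which enter the nucleus with Smad4 and switch on target genes, the Id genes foremost among them. Id proteins have a helix-loop-helix but no basic region, so they pair with basic helix-loop-helix (bHLH) factors and keep them off DNA. In mouse ES cells, BMP4 acting through Id genes is known to hold back neural differentiation beside the cytokine LIF, and in fibroblasts the pathway is tied to matrix and bone formation.

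Promoter windows of 300 bases, from 250 before to 50 after the start of transcription, were read from RefSeq (GRCm38.p6) and matched 8 of the 10 genes, all but Bmp1 and Id1. Those of 3 Id genes are shown because Id genes are the direct targets of the pathway, and that of Bmp4 because its signal separated the iPS cell lines. Capitals mark GGCGCC, the core of the BMP response element known from Id1, GGAGCC on either strand (GGCTCC when read from the other), and CANNTG, the E-box bound by the bHLH partners of Id proteins.
Id2, chr12:25096043-25096342, minus strand: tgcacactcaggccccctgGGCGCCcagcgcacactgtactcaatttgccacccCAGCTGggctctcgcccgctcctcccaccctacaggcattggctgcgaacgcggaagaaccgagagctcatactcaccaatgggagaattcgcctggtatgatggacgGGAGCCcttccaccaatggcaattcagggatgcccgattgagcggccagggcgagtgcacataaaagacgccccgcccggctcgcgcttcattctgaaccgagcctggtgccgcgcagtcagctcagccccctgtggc
Id3, chr4:136143572-136143871, plus strand: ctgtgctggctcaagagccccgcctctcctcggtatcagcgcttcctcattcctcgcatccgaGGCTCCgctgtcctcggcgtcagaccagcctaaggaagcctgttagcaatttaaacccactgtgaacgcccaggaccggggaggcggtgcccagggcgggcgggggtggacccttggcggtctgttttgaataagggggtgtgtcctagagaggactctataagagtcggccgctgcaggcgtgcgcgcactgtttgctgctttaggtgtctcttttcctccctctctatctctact
Id4, chr13:48260866-48261165, plus strand: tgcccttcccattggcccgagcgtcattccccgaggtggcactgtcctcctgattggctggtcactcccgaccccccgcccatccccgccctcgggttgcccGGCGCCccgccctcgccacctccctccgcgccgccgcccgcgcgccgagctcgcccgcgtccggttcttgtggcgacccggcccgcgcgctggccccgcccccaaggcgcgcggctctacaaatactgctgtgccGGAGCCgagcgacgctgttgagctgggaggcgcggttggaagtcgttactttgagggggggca
Bmp4, chr14:46390620-46390919, minus strand: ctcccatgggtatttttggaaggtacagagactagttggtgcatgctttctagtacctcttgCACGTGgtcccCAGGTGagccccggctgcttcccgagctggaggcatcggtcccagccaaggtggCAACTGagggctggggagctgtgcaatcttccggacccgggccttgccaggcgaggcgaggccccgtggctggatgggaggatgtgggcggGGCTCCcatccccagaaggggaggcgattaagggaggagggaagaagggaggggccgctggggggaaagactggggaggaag
GGCGCC, which reads the same on both strands, lay once in the window of Id2, 231 bases upstream of the start, and once in that of Id4, 148 bases upstream. It was in none of the windows of Id3, Bmp4 and Smad1, and once each in those of Bmpr1a, Bmpr2 and Grem1. It was present in 11.9% of the 32851 promoter windows of the table. GGAGCC lay once in each of the 4 windows shown and in 30.8% of all windows. The E-box CANNTG lay 3 times in the Bmp4 window and once in the Id2 window, and in 72.3% of all windows. The first of those in Bmp4 has the form CACGTG, which was in 7.15% of all windows. GTCT, a short Smad-binding motif counted on both strands, lay 3 times in the Id3 window, 2 times in that of Bmp4, once in that of Id2 and in none of that of Id4; it was in 88% of all windows, so it was not marked. Both motifs in the spacing of the response element, with 5 bases between them, were in none of these 8 windows and in 0.0731% of all. These are matches of letters only.

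Signals are given as log2 of the background-corrected, quantile-normalized intensity. An offset of 50 in that correction makes differences between dim probes look smaller than they are. A probe was called when its adjusted p from limma was under 0.05 and its difference at least 2-fold. Member probes that passed the p alone are given with their values, and most other pathway genes that did so are not named. With 1 array each, ES cells and MEFs borrow the spread of the 4 iPS cell lines in the fit. Nothing in the labels says that a line was grown more than once, so a p-value reflects the differences among these arrays alone, which may be technical in part. Median exported signals ran between 98.7 and 124, and between 45.8% and 48.6% of probes were above background. Of the 8 pluripotent cell markers, 8 were above background in every iPS cell line and in ES cells and 3 in MEFs. The 12 fibroblast markers were all above background in MEFs, and 8 or 9 of them were in the iPS cell lines and 9 in ES cells. Col1a2, a chain of the main fibroblast collagen, was above background in MEFs only, as were Postn and Pdgfrb. By contrast, Col1a1, Col3a1, Thy1, Lum, Dcn, Pdgfra, Twist1 and Fbln2 were above background on every array. Prrx1 was so in MEFs, ES cells and some of the iPS cell lines.

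**Figure D1:**
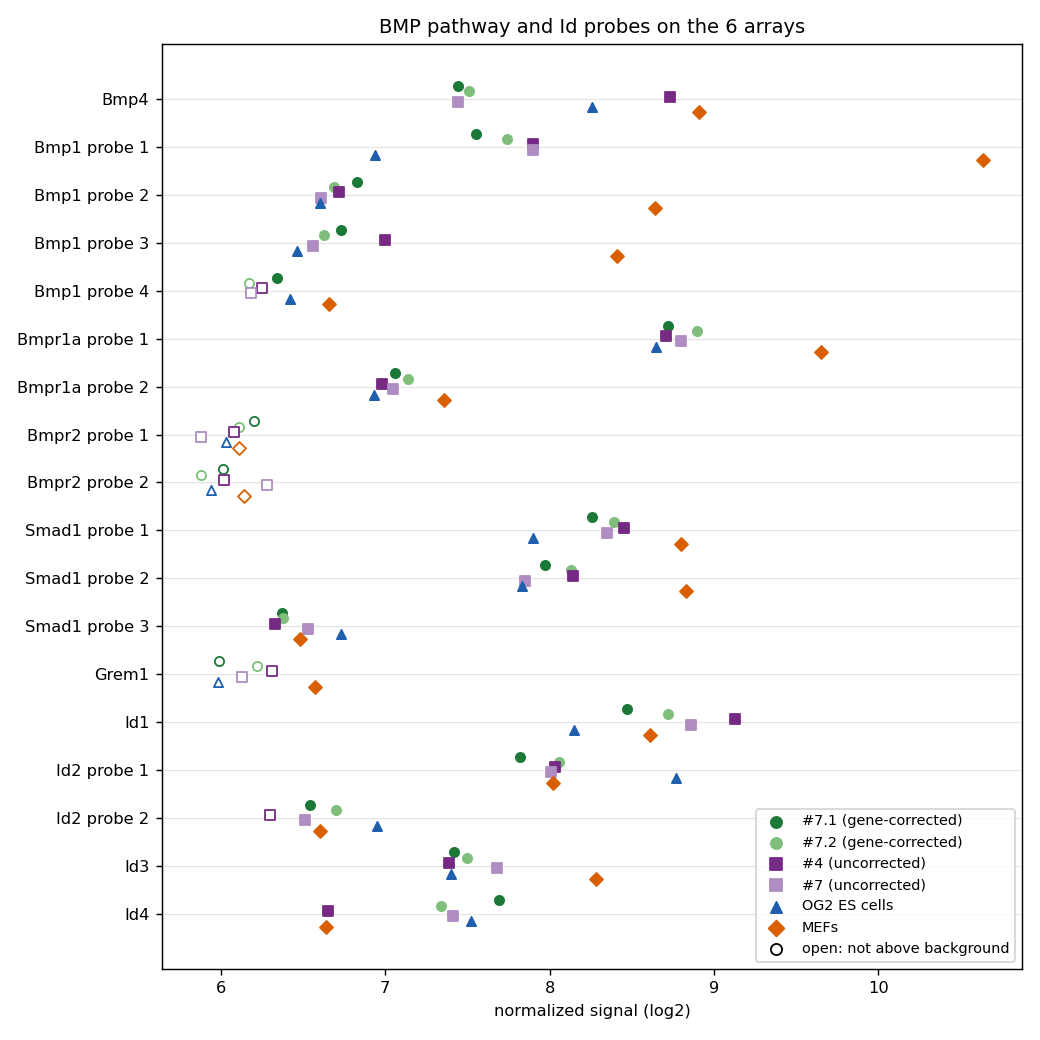
Normalized signal (log2) of each of the 18 probes on the 6 arrays, 1 point per array, shifted vertically by array so that points do not hide each other; open symbols were not above background. MEFs lie to the right of all other arrays for the first 3 probes of Bmp1 and for both of Bmpr1a, and line #4 lies beside MEFs for Bmp4 and Id4.

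Against the MEFs, members of the pathway were mostly lower in the iPS cell lines, and Bmp1 by most. Of 16 tested member probes, 4 were called lower (3 of Bmp1 and that of Bmp4) and 0 higher, whereas 12% of all 15384 tested probes were called lower and 12.5% higher. By adjusted p alone 10 of 16 were lower and 0 higher, beside 26% and 27.7% of all tested probes. The median difference of the 16 probes was −0.43, beside 0.04 over all tested probes. Counted by the brightest probe of each gene, 2 of 9 tested genes were called, Bmp1 and Bmp4, both lower. The members were chosen with earlier results of these data known, so these counts and the median describe the list and are no test of it. Grem1 passed the filter only through the MEFs, so its direction in the fit was fixed by the filter; it is 1 of the 10 probes lower by adjusted p and part of the median. When arrays were scaled to a common median instead of by quantiles, the split of all calls moved to 1438 higher and 2496 lower (36.6% higher), from 1925 and 1852 (51%), and 4 of the 9 genes were called.

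Bmp4 encodes the ligand of the group. Its signal (probe ILMN_1215252) was 7.44 in line #7.1, 7.51 in #7.2, 8.73 in #4 and 7.44 in #7, against 8.26 in ES cells and 8.91 in MEFs. Lines #7.1, #7.2 and #7 lay within 0.07 of each other, while line #4 lay above the ES cells and just under the MEFs. The 4 lines averaged 7.78 ± 0.64 (SD, n = 4) and lay under the MEFs in 4 of 4 lines. The log2 difference was −1.12 (SE 0.38, adjusted p = 0.026, limma), or 2.18-fold lower. That call rested on which lines were in the group. Lines #7.1, #7.2 and #7 share a derivation, so a p from a fit without line #4 reflects the spread within it alone. Without line #4 the difference was −1.44 (adjusted p = 7.9e-07), without #7.1 it was −1.01 (adjusted p = 0.049, still called), without #7.2 it was −1.03 (adjusted p = 0.066), without #7 it was −1.01 (adjusted p = 0.056) and with lines #4 and #7 only it was −0.82 (adjusted p = 0.13), all from limma. Against ES cells the difference was −0.48 (SE 0.38, 95% interval −1.31 to 0.35, adjusted p = 0.56), and without line #4 it was −0.80 (adjusted p = 0.0034, under 2-fold). ES cells against MEFs differed by −0.64 (SE 0.50, adjusted p = 0.30), and with the spread of the 3 lines other than #4 the same difference had an adjusted p of 0.0041 (limma). The order of the levels was therefore MEFs, ES cells and then lines #7.1, #7.2 and #7, with line #4 between the first pair. With the spread of all 4 lines, ES cells were not separated from MEFs, and ES cells against #7.1, #7.2 and #7 alone were not tested with that spread.

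**Figure D2:**
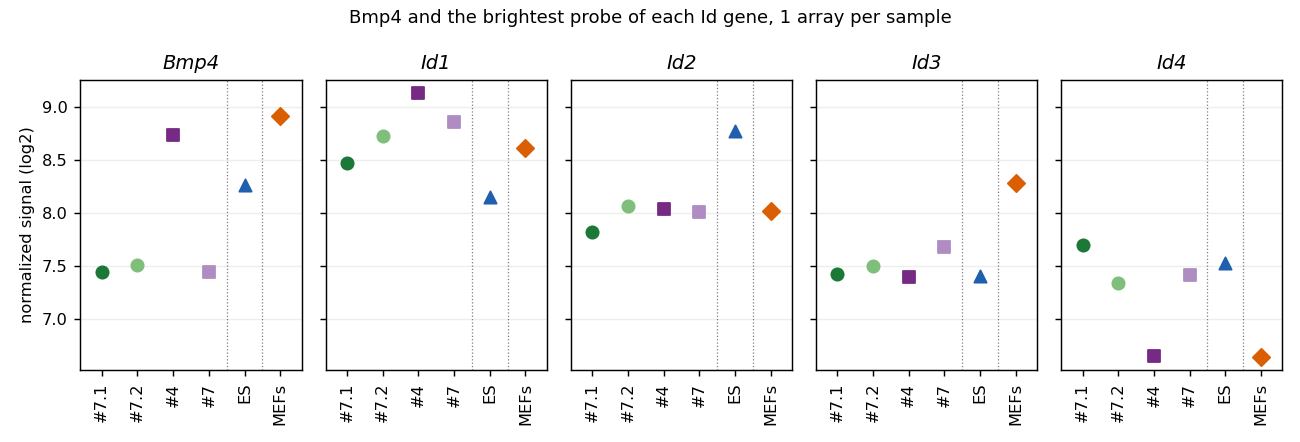
Normalized signal (log2) of Bmp4 and of the brightest probe of each Id gene, 1 point per array, with gene-corrected lines first, then uncorrected lines, ES cells and MEFs. Line #4 stands apart in Bmp4 (8.73) and Id4 (6.65), ES cells in Id2 (8.77) and MEFs in Id3 (8.28).

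Bmp1, in spite of its name, is no ligand of this family but a metalloprotease that trims procollagens and cuts the BMP antagonist chordin. Its brightest probe (ILMN_2989955) read 7.55 in #7.1, 7.74 in #7.2, 7.90 in #4 and 7.90 in #7, against 6.94 in ES cells and 10.64 in MEFs. The MEFs were far above every other array and the ES cells below every iPS cell line. The difference of iPS cell lines from MEFs was −2.87 (SE 0.16, adjusted p = 3.4e-08, limma), or 7.29-fold lower. The second probe (ILMN_1218116) lay between 6.61 and 6.83 in the iPS cell lines, against 6.60 in ES cells and 8.64 in MEFs, and the next (ILMN_2713538) between 6.56 and 7.00, against 6.46 and 8.41. Their differences from MEFs were −1.93 (adjusted p = 3.1e-07) and −1.68 (adjusted p = 4.6e-06), and leaving out any line kept all 3 probes called. The remaining probe (ILMN_1255558) was above background in #7.1, ES cells and MEFs only and differed from MEFs by −0.43 (adjusted p = 0.022, limma, under 2-fold).

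ES cells had even less Bmp1 signal beside MEFs, with differences of −3.70, −2.04 and −1.95 for the first 3 probes (adjusted p = 1.7e-07, 3.9e-06 and 2.4e-05, limma). Between iPS cell lines and ES cells the brightest probe differed by 0.83 (SE 0.17, adjusted p = 0.015, limma), 1.78-fold and so under the 2-fold minimum, with 4 of 4 lines higher. The other 3 probes differed by 0.11, 0.27 and −0.18 and did not pass the test, so the probes did not share a direction there. The summed normalized signal of the 12 fibroblast markers, with its offset of 50 for each probe, was 1850 in #7.1, 2221 in #7.2, 2047 in #4 and 2166 in #7, against 1750 in ES cells and 45394 in MEFs. It was thus also lowest in ES cells and highest in MEFs, and the part of feeder fibroblasts in the Bmp1 signal was not tested. In these mixed RNA samples, fewer cells that make a transcript and less transcript per cell cannot be told apart.

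Bmpr1a, the type I receptor also called ALK3, was above background on every array. Its brighter probe (ILMN_1251119) read 8.72 in #7.1, 8.90 in #7.2, 8.71 in #4 and 8.80 in #7, against 8.65 in ES cells and 9.65 in MEFs. The iPS cell lines and ES cells lay together between 8.65 and 8.90, all below MEFs. The difference from MEFs was −0.86 (SE 0.14, adjusted p = 0.00025, limma) for the iPS cell lines and −0.99 (SE 0.17, adjusted p = 0.00064) for ES cells, both short of 2-fold at 1.82 and 1.99, and median scaling took them past it (−1.13 for the iPS cell lines). The second probe (ILMN_2653312), at 6.98 to 7.14 in the lines, 6.93 in ES cells and 7.36 in MEFs, differed from MEFs by −0.30 for the iPS cell lines (adjusted p = 0.088, limma). Against ES cells the probes differed by 0.13 (95% interval −0.19 to 0.45) and 0.12 (−0.18 to 0.43), and neither passed the test. Bmpr2, the type II receptor, had probes between 5.88 and 6.28 on all 6 arrays, which is not above background, so nothing was tested for it and its level is known only as a bound.

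Smad1 carries the signal to the nucleus. Its brightest probe (ILMN_2953700) read 8.26 in #7.1, 8.39 in #7.2, 8.45 in #4 and 8.35 in #7, against 7.90 in ES cells and 8.80 in MEFs. The iPS cell lines lay between the ES cells and the MEFs without overlap. They differed from MEFs by −0.44 (SE 0.14, adjusted p = 0.020, limma, 1.36-fold) and from ES cells by 0.46 (SE 0.14, adjusted p = 0.10), and ES cells differed from MEFs by −0.90 (adjusted p = 0.0011, 1.87-fold). The second probe (ILMN_2671572), at 7.97 in #7.1, 8.13 in #7.2, 8.14 in #4, 7.85 in #7, 7.83 in ES cells and 8.83 in MEFs, differed from MEFs by −0.81 for the iPS cell lines (adjusted p = 0.00079) and by −0.99 for ES cells (adjusted p = 0.0012, limma). The remaining, dim probe (ILMN_1234354), between 6.33 and 6.53 in the iPS cell lines, 6.73 in ES cells and 6.48 in MEFs, did not follow them: its differences from MEFs were −0.08 for iPS cell lines (adjusted p = 0.68) and 0.25 for ES cells (adjusted p = 0.24, limma). Which of the 3 probes reads which transcript of Smad1 was not tested.

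Grem1, a secreted antagonist that traps BMP ligands, was above background in MEFs only, at 6.57. Its normalized values in #7.1, #7.2, #4, #7 and ES cells, 5.99, 6.22, 6.31, 6.13 and 5.98, carry no order. The signal was at least 1.19-fold lower in iPS cell lines than in MEFs and at least 1.17-fold lower in ES cells. Its direction in the fit was fixed by the filter, and its adjusted p against MEFs (0.039 for the iPS cell lines, limma) was lost in several alternatives, at 0.065 without #7, 0.078 without #7.1, 0.062 without #7.2, 0.16 with lines #4 and #7 only and 0.059 with no background correction. These bounds are small because the MEF signal itself was close to the limit of detection.

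The 4 Id genes, targets of the pathway, did not share a pattern. Id1 (ILMN_2672190) read 8.47 in #7.1, 8.72 in #7.2, 9.13 in #4 and 8.86 in #7, against 8.15 in ES cells and 8.61 in MEFs. Every iPS cell line was above the ES cells and the MEFs lay within the range of the lines. The difference was 0.65 against ES cells (SE 0.21, 95% interval 0.20 to 1.10, adjusted p = 0.11, limma, higher in 4 of 4 lines) and 0.18 against MEFs (95% interval −0.27 to 0.63, adjusted p = 0.49). With median scaling the difference from MEFs turned to −0.11, so it has no settled sign. ES cells against MEFs differed by −0.46 (adjusted p = 0.16). With median scaling both differences that involve ES cells passed the adjusted p, that of the iPS cell lines from ES cells at 0.79 (adjusted p = 0.043) and that of ES cells from MEFs at −0.89 (adjusted p = 0.017, limma), both under 2-fold.

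Id2 was highest in ES cells. Its brighter probe (ILMN_1228557) read 7.82 in #7.1, 8.06 in #7.2, 8.03 in #4 and 8.01 in #7, against 8.77 in ES cells and 8.02 in MEFs. The MEFs lay inside the narrow range of the iPS cell lines, and ES cells were above all. iPS cell lines differed from ES cells by −0.79 (SE 0.15, 95% interval −1.12 to −0.46, adjusted p = 0.012, limma, lower in 4 of 4 lines), 1.73-fold, under the 2-fold minimum; with lines #4 and #7 only, the adjusted p was 0.078. ES cells were higher than MEFs by 0.75 (adjusted p = 0.0046, 1.69-fold), but by 0.29 with median scaling (adjusted p = 0.28, limma). The second, dim probe (ILMN_2887239) was not above background in #4 and read 6.54 in #7.1, 6.70 in #7.2 and 6.51 in #7, against 6.95 in ES cells and 6.60 in MEFs. ES cells were again highest, with a difference of the iPS cell lines from them of −0.44 (adjusted p = 0.18). Between iPS cell lines and MEFs the brighter probe differed by −0.04 (95% interval −0.36 to 0.29, adjusted p = 0.86, limma).

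Id3 was highest in MEFs. Its probe (ILMN_2687169) read 7.42 in #7.1, 7.50 in #7.2, 7.39 in #4 and 7.68 in #7, against 7.40 in ES cells and 8.28 in MEFs. The ES cells fell within the range of the iPS cell lines, and all were below MEFs. The difference from MEFs was −0.78 for the iPS cell lines (SE 0.15, adjusted p = 0.00088, limma, 1.72-fold) and −0.88 for ES cells (SE 0.19, adjusted p = 0.0023, 1.84-fold), both under 2-fold, and with median scaling they were called at −1.09 and −1.28. iPS cell lines and ES cells differed by 0.10 (95% interval −0.24 to 0.44, adjusted p = 0.80).

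Id4 ran the other way, with its lowest signals in MEFs and line #4. Its probe (ILMN_2678714) read 7.69 in #7.1, 7.34 in #7.2, 6.65 in #4 and 7.41 in #7, against 7.52 in ES cells and 6.64 in MEFs. Line #4 and the MEFs were nearly alike, and the other 3 lines and the ES cells were all above them. The iPS cell lines differed from MEFs by 0.64 (SE 0.28, 95% interval 0.02 to 1.25, adjusted p = 0.076, limma), with line #4 level with the MEFs and the other 3 lines above them. Without line #4 the difference was 0.84 (adjusted p = 0.00043, under 2-fold), and without any other line it was between 0.50 and 0.62 and did not pass. ES cells differed from MEFs by 0.88 (SE 0.37, adjusted p = 0.064), and with the spread of the lines other than #4 that difference had an adjusted p of 0.0015 and with those other than #7.1 one of 0.045 (limma). The iPS cell lines differed from ES cells by −0.25 (95% interval −0.86 to 0.37, adjusted p = 0.71). As for Bmp4, a p from a fit without line #4 reflects the spread within the #7 derivation alone.

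**Figure D3:**
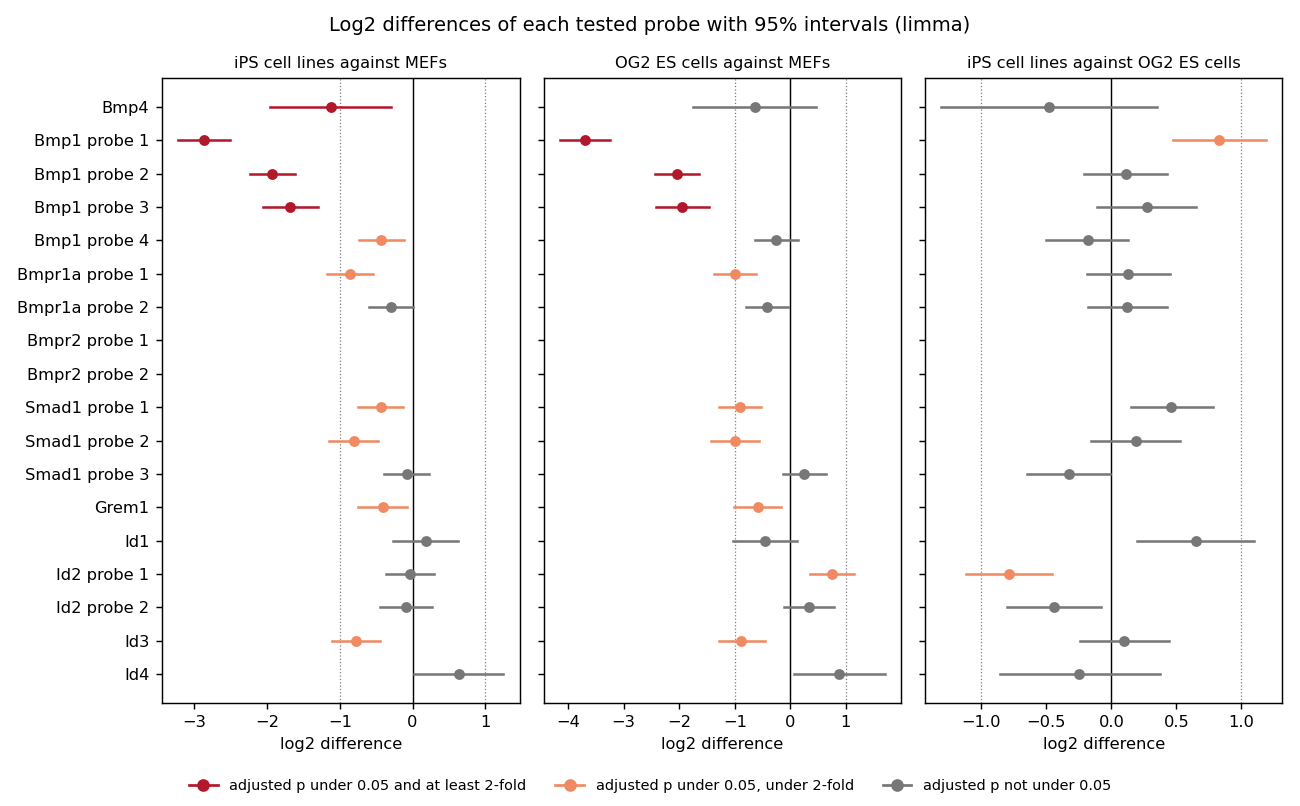
Log2 difference of each tested member probe in 3 comparisons, with its 95% interval from limma; colours mark probes called, those past the adjusted p but under 2-fold, and the rest, and dotted lines mark 2-fold. The first 3 Bmp1 probes lie left of −1 in both comparisons with MEFs, and no probe passes 2-fold and the test between iPS cell lines and ES cells.

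Between iPS cell lines and ES cells, 0 of 15 tested member probes were called, beside 0.609% of all 14620 tested probes called lower and 0.383% higher, so a count of 0 is near the background and says nothing of the members. By adjusted p alone 1 was lower (Id2) and 1 higher (Bmp1), beside 2.38% and 1.77% of all tested probes, and 6 of the 15 had an unadjusted p under 0.05, beside 2696 of all 14620. The split of all calls was 56 higher and 89 lower (38.6% higher), and with median scaling 80 higher and 61 lower (56.7% higher), with 0 members called in either. In ES cells against MEFs, 3 of 16 tested member probes were called lower, all of Bmp1, and 0 higher, beside 13.6% and 13.8% of all 14057 tested probes. By adjusted p alone 8 were lower, Grem1 with its fixed direction among them, and 1 higher (Id2), beside 25.7% and 27.8%. Median scaling moved the median difference of all probes in that comparison to −0.19, from 0.03, and the split of calls to 1184 higher and 2820 lower (29.6% higher), from 1944 and 1918 (50.3%). The comparisons with MEFs share the MEF array, so their values stand side by side and are not independent.

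Among the iPS cell lines themselves, Bmp4 and Id4 varied most. Over probes above background in all 4 lines (10526 probes), the SD between lines had a median of 0.12 and was 0.64 for Bmp4, 0.44 for Id4 and 0.28 for Id1, larger than in 99.9%, 99.1% and 94.6% of these probes. The SD of the other member probes that could be placed was between 0.06 and 0.19. For Bmp4 and Id4 line #4 stood apart from the other 3. It was at 8.73 for Bmp4, against 7.46 ± 0.04 in #7.1, #7.2 and #7 (SD, n = 3), which is 2.41-fold higher. For Id4 it was at 6.65, against 7.48 ± 0.18 (1.77-fold lower). Id1 was spread more evenly, with line #4 at 9.13, against 8.68 ± 0.20 in the other 3 lines (1.36-fold higher). Line #4 is the only line outside the #7 derivation and has 1 array, so these differences have no replicate check and are given without a test. At least 2-fold differences between line #4 and #7 were found in 0.357% of 13175 probes, 1 of them a member (Bmp4).

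**Figure D4:**
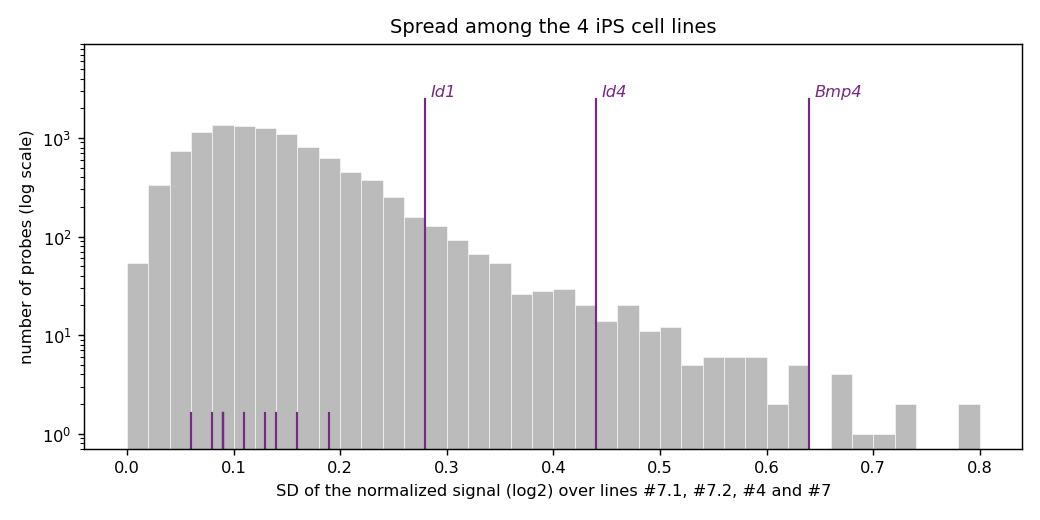
Histogram of the SD over the 4 iPS cell lines for the 10526 probes above background in all 4 lines (log-scaled vertical axis, SD in log2 units); purple lines mark member probes, the 3 named ones by tall lines and the others by short ones. Bmp4 at 0.64 and Id4 at 0.44 lie in the thin right tail, Id1 at 0.28 beside its start.

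Line #4 also lay outside the other lines for Tbx3, Chrd and Skil, given as examples from the listed pathway genes. Tbx3, a T-box factor and BMP target, was at 9.40 in #4, against 8.61, 8.40 and 8.37 in #7.1, #7.2 and #7, and Chrd, the antagonist chordin, was at 6.71, against 7.34, 7.74 and 7.76. Skil, a repressor of Smads, was at 9.17 in #4, against 9.85, 9.82 and 9.79. How many other listed genes had line #4 outside the other lines was not counted, so these examples do not describe the pathway as a whole. Chrd and Skil were chosen after their values were seen, and none of these differences was tested. The summed signal of primitive endoderm markers, offset included, was 438 in #4, against 495, 501 and 502 in #7.1, #7.2 and #7. Sox17 and Foxa2 of that list were above background in no iPS cell line. Gata6 was at 6.29 in #4, against 6.98, 7.36 and 7, whereas Gata4 was highest in #4, at 6.5 against 6.43, 6.16 and 6.36. The Gata6 value of #4 and the Gata4 value of #7.2 were not above background, so they are known only as bounds. The sum of pluripotent cell markers was 43862, against 42466, 39996 and 40497, and that of trophectoderm markers 316, against 336, 317 and 315. Of the trophectoderm markers, 3 were above background in #4 and 1 in each other line. The part of these markers in the Bmp4 signal was not tested.

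Gene correction was compared between lines #7.1 and #7.2 and lines #4 and #7 to ask whether the transgene went with any change in these genes. Of 15 tested member probes 0 were called, and of all 14242 tested probes 0% were called. An unadjusted p under 0.05 (limma) was reached by 664 of all tested probes, no more than chance alone would give. Among them were 2 member probes (Id1 and Id4). In 4 of the 15 member probes the gene-corrected and uncorrected lines did not overlap, beside 33.7% of all tested probes. Id1 averaged 8.59 in gene-corrected and 8.99 in uncorrected lines, a difference of −0.40 (SE 0.15, 95% interval −0.73 to −0.07, adjusted p = 0.95, limma). Id4 averaged 7.51 and 7.03, a difference of 0.48 (SE 0.22, adjusted p = 0.95). Bmp4 differed by −0.61 (SE 0.30, 95% interval −1.27 to 0.05, adjusted p = 0.95, limma). Without line #4 the Bmp4 difference was 0.04 and without #7 it was −1.26, so it followed line #4. Set against their parent line #7 alone, Bmp4 differed by 0.00 in #7.1 and 0.07 in #7.2, Id1 by −0.40 and −0.15, and Id4 by 0.28 and −0.07. No member probe was 2-fold apart in these 2 pairs, in which 0.0994% and 0.0305% of probes were.

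Beyond the members, 74 further genes of the pathway were listed by role, 67 of them had a probe, and each was read by its brightest probe. Against MEFs, 43 were tested in the iPS cell lines: 10 were called lower, 6 higher and 27 were not called, beside 12% and 12.5% of all tested probes called lower and higher. Their median was −0.30, beside 0.04 over all tested probes, and includes genes such as Bmp3 and Crim1 that were above background in MEFs only. In ES cells 41 were tested, of which 11 were called lower and 6 higher, beside 13.6% and 13.8%. Bmper and Fst are among the genes called lower there, with a direction fixed by the filter. Between iPS cell lines and ES cells 0 of 42 were called, beside 0.609% of all tested probes called lower and 0.383% higher. Between gene-corrected and uncorrected lines 0 of 40 were called, beside 0% of all tested probes. Both counts are near the background and say nothing of the pathway genes.

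**Figure D5:**
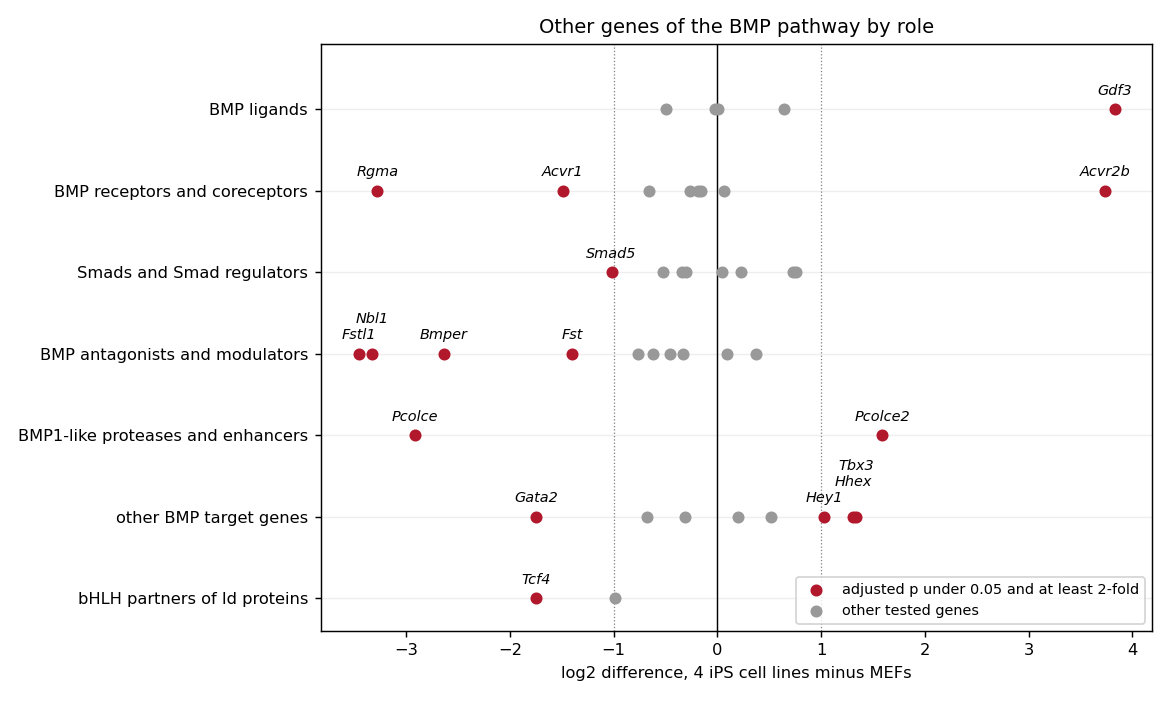
Log2 difference of the 4 iPS cell lines minus MEFs for each tested gene of the 7 lists of pathway genes, 1 point per gene (brightest probe), with called genes in red and named; dotted lines mark 2-fold. Gdf3 and Acvr2b lie near 4 on the right and Fstl1, Nbl1 and Rgma beyond −3 on the left.

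Of 5 tested ligands, 1 was called: Gdf3, a ligand of the same superfamily that marks pluripotent cells, at 10.08 to 10.19 in the iPS cell lines, against 10.25 in ES cells and 6.32 in MEFs. It was higher than MEFs by 3.83 (SE 0.14, adjusted p = 9.8e-10, limma). The other tested ligands were not called, and most of the list, Bmp2 among them, was above background on no array of the comparison.

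Among 8 tested receptors and coreceptors, 2 were called lower in the iPS cell lines and 1 higher, beside 12% and 12.5% of all tested probes. Acvr2b, a type II receptor of activins that also binds BMPs, was higher than in MEFs by 3.74 in the iPS cell lines and 3.45 in ES cells. Rgma, a membrane-anchored BMP coreceptor, was lower, with differences of −3.28 and −3.50, and so was Acvr1, the type I receptor ALK2, with −1.49 and −1.42 (limma, the highest adjusted p of these being 6.8e-05, for Acvr1 in ES cells). Acvr1 read 7.17 to 7.42 in the iPS cell lines, against 7.38 in ES cells and 8.80 in MEFs. Of 8 tested Smads and regulators, 1 was called lower in the iPS cell lines and 0 higher, beside the same shares. It was Smad5, which like Smad1 is activated by the receptors (−1.02, adjusted p = 7.1e-05, limma). Smad5 was called lower in ES cells as well (−1.16). Ppm1a, a phosphatase that acts on Smads, was called higher in ES cells than in MEFs (1.12, adjusted p = 0.00053, limma). In the iPS cell lines Ppm1a was higher too, by 0.73, and passed the adjusted p but not 2-fold.

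Of 10 tested antagonists and modulators, 4 were called lower in the iPS cell lines and 0 higher, beside the 12% and 12.5% of all tested probes. Fstl1, a secreted follistatin-like glycoprotein, was at 8.69 to 8.90 in the iPS cell lines, against 8.53 in ES cells and 12.23 in MEFs (−3.46, adjusted p = 2.9e-09, limma). Nbl1, the founding DAN-family antagonist, differed by −3.33, Bmper, which binds BMPs in the matrix, by −2.64, and Fst, follistatin, by −1.40. Fstl1, Nbl1, Bmper and Fst were called lower in ES cells as well, where Bmper was at least 5.59-fold and Fst at least 3.71-fold lower than in MEFs. Bmper and Fst passed the filter of that comparison only through the MEFs, so their direction there was fixed by the filter. The fibroblast marker sums given with Bmp1 run the same way, and their part in these differences was not tested.

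Of the 2 tested enhancers of the Bmp1 protease, Pcolce was lower than in MEFs (difference −2.92, adjusted p = 5.0e-08) and Pcolce2 higher by 1.59 (adjusted p = 4.4e-05, limma). Pcolce read 8.55 to 9.02 in the iPS cell lines, against 8.98 in ES cells and 11.68 in MEFs. Of 8 tested BMP target genes other than Id genes, 3 were called higher and 1 lower in the iPS cell lines, beside 12.5% and 12% of all tested probes. Tbx3 was higher by 1.34, Hhex, a homeobox gene of early endoderm, by 1.31 and Hey1, a bHLH repressor, by 1.03, and Gata2, a zinc finger factor of blood progenitors, was lower, with a difference of −1.75. Both tested bHLH partners of Id proteins were lower than in MEFs: Tcf4 (E2-2) differed by −1.75 (adjusted p = 8.7e-07) in the iPS cell lines and −2.14 in ES cells, and Tcf12 (HEB) by −0.99, short of 2-fold, and −1.03 (adjusted p = 0.00075, limma).

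The genes nearest in pattern to a member were found by the root mean square difference (RMS) of centred log2 signals over the 6 arrays, among 10673 genes. For Bmp4 these were Ccdc130 (RMS 0.18) and Zbtb24 (0.21), of which Zbtb24 read 6.73 in #7.1, 6.78 in #7.2, 7.64 in #4 and 6.77 in #7, against 7.20 in ES cells and 7.73 in MEFs. For Id4 they were Fam3c (0.10) and Hexim1 (0.12), and Hexim1 was likewise low in #4 at 7.61, against 8.61, 8.44 and 8.43 in #7.1, #7.2 and #7. For Id1 they were Agtrap (0.05) and Tmem186 (0.08), for Id2 Mt1 (0.05) and Slk (0.07) and for Id3 Lama2 (0.04) and Eef2k (0.04). Outside the MEFs, Lama2 lay at 6.06 to 6.28 and Eef2k at 6.09 to 6.46, near the background. Their likeness to Id3 therefore rests largely on the higher MEF values, 6.88 and 7.02. Over 6 arrays with 1 per sample, likeness in pattern is a description only.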

How the data were processed

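The authors amplified total RNA into labelled cRNA, hybridized 1 Illumina mouse-8 V2 BeadChip per sample and exported signals from BeadStudio, version not given in the sources used here. Each sample's deposited file holds probe intensity before background subtraction. The deposited table of the series holds the authors' background-subtracted, cubic spline normalized intensity on the linear scale, used for the background and as an alternative. Neither file names a genome build or holds a detection p-value.

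In limma 3.58.1 (R 4.3.3), the exported signals went through normexp with an offset of 50 and then through quantile normalization, before log2 was taken. A probe was above background where its signal exceeded, by 2.326 noise SDs, the signal at which the authors' value is 0. Of 25697 probes, 23978 name 1 gene and 1719 none, from the platform's annotation. All probes above background on at least 1 array of a comparison were fitted, with Benjamini-Hochberg adjustment over all of them. The 4 iPS cell lines, ES cells and MEFs entered 1 limma fit (3 residual degrees of freedom) and gene-corrected against uncorrected lines another (2 residual degrees of freedom). A bound ("at least N-fold") sets the brighter mean against the lowest normalized signal above background. Listed genes were read by their brightest probe. All member probes were named, other pathway genes where called, up to 4 per list and direction, and the 2 nearest genes by RMS for Bmp4 and the Id genes; the rule also names Grem1, left out because 1 array alone measured it. The members and lists were chosen with earlier results of these data known. No test of a list was made. Promoters are RefSeq windows of GRCm38.p6. Alternatives changed the scaling, background correction, start values, filter, probe choice, fold minimum and the lines included. Precision is limited by how few arrays there are.

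The fit was tested on simulated arrays with 200 bright probes changed 3-fold or 4-fold. Of 3-fold changes, 93% were called in iPS cell lines against MEFs (15314 probes, 2 false calls), 96% against ES cells (15457 probes, 5 false calls), 84% in ES cells against MEFs (13800 probes, 2 false calls) and 99% in gene-corrected against uncorrected lines (14990 probes, 1 false call). Dim probes were simulated with background noise only, and only bright probes above background on every array were changed. The ES and MEF arrays were given the spread of the iPS cell lines, as the fit assumes. These shares therefore do not speak for dimmer probes, members among them, or for lone arrays that vary more.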

Additional observations from a re-analysis of the deposited data

Results flagged for a closer look

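Bmp4 (ILMN_1215252) over the 4 iPS cell lines was flagged because 1 line was far from the rest: line #4 at 8.73 stood above #7.1 at 7.44, #7.2 at 7.51 and #7 at 7.44, and its gap to the nearest of them was 0.94 of the whole range, above Dixon's 95% critical value for 4 samples. It was the only one of 15 member probes checked to pass. Chance flags about 1 in 20 groups, and 5.94% of 10526 probes checked over the same 4 lines passed, so the number of flags among members is not out of the ordinary. The 3 lines that lie together share the derivation of line #7, and with 1 array of line #4 a difference between lines and a difference between arrays cannot be told apart.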

How the results depend on the processing

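Over all tested probes, the count of calls against MEFs was 3777 for iPS cell lines and 3862 for ES cells and that of iPS cell lines against ES cells 145. With the mean of each gene's probes, which tests genes, these became 2346, 2427 and 85, with no fold minimum 8254, 7516 and 607, and with a 3-fold minimum 1725, 1810 and 49. Of the members, 2 were called in iPS cell lines against MEFs (Bmp1 and Bmp4). Median scaling made this 4 and no fold minimum 6, while the authors' values, the mean of probes, a 3-fold minimum and lines #4 and #7 only each made it 1, and leaving out 1 line made it 1 to 2. In ES cells against MEFs 1 member was called, 4 with median scaling and 6 with no fold minimum, and between iPS cell lines and ES cells 0, or 2 with no fold minimum. For gene-corrected against uncorrected lines, with 0 calls, leaving out 1 line gave 0 to 35 calls, the 35 without line #7 and 3 without #7.1, and 0 to 1 members, which was Bmp4 without #7. The Bmp4 call against MEFs was also lost with the authors' values (−1.13, adjusted p = 0.054, limma) and the mean of probes (adjusted p = 0.063); the cause was not tested.

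Directions turned only where differences were small or rested on 1 line. Against MEFs, Id1 turned to −0.11 with median scaling, and Id2 (ILMN_1228557) ran between −0.06 and 0.02 when 1 line was left out. Between gene-corrected and uncorrected lines, Id2 turned to 0.07 with the mean of its probes, and over the fits without 1 line Id2 ran between −0.20 and 0.04, Bmp4 between −1.26 and 0.04, Bmp1 (ILMN_2713538) between −0.31 and 0.12, Bmpr1a (ILMN_1251119) between −0.04 and 0.14, Smad1 between −0.09 and 0.20 (ILMN_2671572) and between −0.16 and 0.04 (ILMN_1234354), and Id3 between −0.21 and 0.07. No paired analysis was possible because the numbers in the labels name lines and subclones that no 2 groups share.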
